A study of Mus musculus with 3 samples.

Results

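Many mouse genes can start transcription at more than 1 place, and different starts can give the transcript different first exons. The 8152 genes described here are those with a gene name of their own and at least 2 first exons in the event list of each of 3 samples, out of 25350 such names with any first exon in every list. Together they hold 28177 of the 55377 different first exons in the data. The lists carry 27059 of these first exons in wildtype cells, 26979 in Pcgf1KO cells and 27151 in Pcgf1KO+ Pcgf1_flag cells, each with its chromosome, start, end, strand and FPKM (fragments per kilobase of exon, scaled to the number of mapped fragments).

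All 3 samples were poly-A RNA-seq libraries of C57BL/6 mouse embryonic stem (ES) cells grown with serum and leukemia inhibitory factor on mitomycin-C inactivated embryonic fibroblasts. The wildtype cells carried no edit. The Pcgf1KO cells had been made with Cas9 and guide RNAs to internal exons of Pcgf1 and were picked as colonies after puromycin selection, and the Pcgf1KO+ Pcgf1_flag cells were Pcgf1KO cells given Pcgf1 with a FLAG tag back by lentiviral infection. There was 1 library per genotype, so no difference below has a replicate check, no p-value is given, and genotype, colony, culture, viral infection and library cannot be told apart. The feeder fibroblasts of the cultures may also have contributed RNA. The summed first-exon FPKM of 8 ES cell markers was 2075 in wildtype, 2042 in Pcgf1KO and 1876 in Pcgf1KO+ Pcgf1_flag cells. None of these markers was at 0, so the samples had the markers of their ES cell label. In the same order, 18 fibroblast markers summed to 177, 124 and 102 FPKM, with 2, 4 and 3 of them at 0. Most of this lay on Fn1 (110, 75.7 and 74.9 FPKM), Vim (39.9, 31.9 and 0 FPKM) and Thy1 (14.2, 6.39 and 13.5 FPKM). Vim alone put the Pcgf1KO+ Pcgf1_flag sum below that of Pcgf1KO cells. The collagens on the list were low and differed in order. Highest in Pcgf1KO+ Pcgf1_flag cells were Col1a1 (1.88, 0.390 and 2.21 FPKM), Col6a1 (0.640, 0.182 and 1.08 FPKM), Col6a2 and Col6a3. Highest in wildtype were Col1a2 (0.635, 0.021 and 0.148 FPKM) and Col5a2 (0.947, 0.810 and 0.686 FPKM). The sum thus does not rank the samples by feeder RNA. Markers without a value in every sample were left out, among them Sox2, Dppa5a and the fibroblast marker Tagln.

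As background, first exons that start at different places can be read from different promoters. First exons are told apart here by the end at which they are spliced, so some share a start. Alternative promoters can change the 5′ leader of an mRNA, which bears on how well it is translated, can change the N-terminus of the protein, or can start a short noncoding transcript inside the gene. Pcgf1 is the subunit that defines PRC1.1, a variant Polycomb repressive complex that Kdm2b brings to promoters rich in unmethylated CG dinucleotides, where the Ring1 and Rnf2 subunits ubiquitinate histone H2A. Most promoters of widely used genes lie in such CG islands.

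The promoters of 4 genes show what is being compared. In each gene both competing first exons start within 100 bases of a promoter in RefSeq (build GRCm38.p6), and their use differed by more than 25 percentage points between wildtype and Pcgf1KO cells. They were picked for display, after their values were seen, from 20 such genes considered, all of which had the same annotated first exons in all lists. Each promoter is given from 250 bases before to 50 bases after the RefSeq start, 5′ to 3′ on the strand of the gene, with every CG in capitals.

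In Osbpl9, which encodes a lipid-transfer protein of the oxysterol-binding family, both first exons are coding and lie on chromosome 4, minus strand, 84212 bases apart. The upstream promoter held 17 CG and the downstream promoter 26 CG in their 300 bases.
Osbpl9 upstream promoter, chr4:109202223-109202522, minus strand: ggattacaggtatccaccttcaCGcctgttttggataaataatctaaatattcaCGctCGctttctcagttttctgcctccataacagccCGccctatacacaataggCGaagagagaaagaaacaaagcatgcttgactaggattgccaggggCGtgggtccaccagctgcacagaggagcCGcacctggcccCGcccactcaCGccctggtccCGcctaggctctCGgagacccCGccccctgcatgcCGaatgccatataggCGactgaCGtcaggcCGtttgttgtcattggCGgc
Osbpl9 downstream promoter, chr4:109117987-109118286, minus strand: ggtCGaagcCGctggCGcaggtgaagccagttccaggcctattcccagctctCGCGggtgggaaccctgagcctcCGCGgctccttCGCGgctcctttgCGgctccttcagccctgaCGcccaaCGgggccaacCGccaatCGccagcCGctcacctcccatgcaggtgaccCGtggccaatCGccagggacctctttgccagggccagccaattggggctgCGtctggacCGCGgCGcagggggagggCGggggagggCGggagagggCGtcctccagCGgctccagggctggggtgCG

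In Ece1, the endothelin-converting enzyme, the upstream first exon is untranslated and the other, 51234 bases downstream on the plus strand of chromosome 4, is coding. Isoforms of this enzyme are known to differ at their N-termini. Their promoters held 28 and 21 CG.
Ece1 upstream promoter, chr4:137861987-137862286, plus strand: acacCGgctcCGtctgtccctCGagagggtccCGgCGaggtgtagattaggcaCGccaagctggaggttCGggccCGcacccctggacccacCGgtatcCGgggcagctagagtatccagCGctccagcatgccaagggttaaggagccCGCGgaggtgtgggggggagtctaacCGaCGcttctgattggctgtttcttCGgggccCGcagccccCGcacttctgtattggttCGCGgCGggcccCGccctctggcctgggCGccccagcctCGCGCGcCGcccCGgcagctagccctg
Ece1 downstream promoter, chr4:137913308-137913607, plus strand: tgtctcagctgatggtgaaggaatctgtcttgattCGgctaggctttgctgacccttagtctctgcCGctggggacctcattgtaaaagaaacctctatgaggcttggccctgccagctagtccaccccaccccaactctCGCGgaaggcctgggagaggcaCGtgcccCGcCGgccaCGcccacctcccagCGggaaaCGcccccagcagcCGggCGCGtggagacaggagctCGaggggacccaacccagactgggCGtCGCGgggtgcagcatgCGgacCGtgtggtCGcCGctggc

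In Ptprs, a receptor protein tyrosine phosphatase, both first exons are untranslated and start 14267 bases apart on the minus strand of chromosome 17. The promoters held 21 and 18 CG.
Ptprs upstream promoter, chr17:56476431-56476730, minus strand: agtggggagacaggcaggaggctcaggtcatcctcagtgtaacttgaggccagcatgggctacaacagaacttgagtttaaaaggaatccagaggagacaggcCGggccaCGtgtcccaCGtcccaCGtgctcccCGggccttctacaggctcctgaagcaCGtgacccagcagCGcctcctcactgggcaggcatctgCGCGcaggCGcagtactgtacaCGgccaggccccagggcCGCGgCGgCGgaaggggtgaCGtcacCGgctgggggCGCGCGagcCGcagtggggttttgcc
Ptprs downstream promoter, chr17:56462172-56462471, minus strand: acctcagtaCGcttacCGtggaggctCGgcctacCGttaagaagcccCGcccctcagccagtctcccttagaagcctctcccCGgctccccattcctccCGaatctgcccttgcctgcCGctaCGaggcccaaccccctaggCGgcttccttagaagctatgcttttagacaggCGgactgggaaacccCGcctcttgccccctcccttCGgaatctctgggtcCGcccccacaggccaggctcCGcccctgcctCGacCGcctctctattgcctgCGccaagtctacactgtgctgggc

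Bscl2 encodes seipin, an endoplasmic reticulum protein needed for lipid droplets, and its competing first exons start 1191 bases apart on the plus strand of chromosome 19. These promoters are poor in CG, with 3 and 5.
Bscl2 upstream promoter, chr19:8839078-8839377, plus strand: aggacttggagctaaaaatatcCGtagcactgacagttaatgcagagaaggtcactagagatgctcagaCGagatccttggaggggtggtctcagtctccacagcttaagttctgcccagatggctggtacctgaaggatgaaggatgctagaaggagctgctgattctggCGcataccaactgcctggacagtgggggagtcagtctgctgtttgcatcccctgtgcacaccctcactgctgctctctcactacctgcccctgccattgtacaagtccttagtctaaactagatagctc
Bscl2 downstream promoter, chr19:8840253-8840552, plus strand: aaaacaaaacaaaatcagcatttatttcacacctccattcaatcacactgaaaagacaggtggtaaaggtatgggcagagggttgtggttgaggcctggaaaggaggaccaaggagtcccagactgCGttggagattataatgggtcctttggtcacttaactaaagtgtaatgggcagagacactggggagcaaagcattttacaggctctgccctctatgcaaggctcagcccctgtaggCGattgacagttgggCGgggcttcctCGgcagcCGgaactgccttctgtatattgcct

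Across the 32851 mouse promoters in the RefSeq table, the median was 7 CG in 300 bases and 34.6% held 15 or more, so the promoters of Osbpl9, Ece1 and Ptprs are all of the CG-rich kind and those of Bscl2 are not.

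Pcgf1 itself has 4 listed first exons on the plus strand of chromosome 6. Its leading first exon, at chr6:83078346-83078478, contains coding sequence and stood at 14.0 FPKM in wildtype, 4.86 FPKM in Pcgf1KO and 7.86 FPKM in Pcgf1KO+ Pcgf1_flag cells. An untranslated first exon just upstream, at chr6:83077869-83078238, was listed at 0, 1.02 and 0 FPKM, and the remaining first exons were at 0 throughout. The Pcgf1KO sample thus had the lowest value at the leading first exon and was the sample with a second first exon in use, at 17.3% of the summed FPKM. Both exons lie outside the exons that were targeted, and the values at these genomic positions do not separate the viral copy, so they check neither the knockout nor the rescue.

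Most listed first exons carried little signal. A value of 0 in all 3 samples was found for 15679 first exons (55.6%). In the separate lists, 65.4% of first exons were at 0 in wildtype, 66.4% in Pcgf1KO and 65.1% in Pcgf1KO+ Pcgf1_flag cells. A median gene had 3 first exons, 3239 genes had 2 and the largest number was 28, in Tcf4, which encodes a basic helix-loop-helix factor used in neural development. The summed first-exon FPKM of Tcf4 was 2.78 in wildtype, 2.33 in Pcgf1KO and 1.91 in Pcgf1KO+ Pcgf1_flag cells, and the first exon that led it carried 74.5%, 72.8% and 74.0% of this sum.

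Shares are read below only in the 3250 genes with a summed first-exon FPKM of at least 5 in every sample, 3147 of them protein coding, which hold 12326 first exons. These genes were typically served by a leading first exon alone. The median share of the leading first exon was 100% in each sample, and exactly 1 first exon held at least 10% of the sum in 62.7% of genes in wildtype, 63.5% in Pcgf1KO and 63.8% in Pcgf1KO+ Pcgf1_flag cells. A second first exon at that level was present in 1212, 1186 and 1178 genes. The first exon nearest the 5′ end of the gene led in 64.7%, 64.9% and 64.9% of genes. The outermost starts of a gene were a median of 8867.5 bases apart, and in 2601 genes (80.0%) at least 2 starts were more than 500 bases apart. The 4 genes with the highest sums, the ribosomal protein genes Rps27 and Rplp0, the cyclophilin gene Ppia and the glycolytic gene Gapdh, used the same first exon for 100% of their signal in all 3 samples.

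The comparison of Pcgf1KO with wildtype cells asks whether first-exon use differed when Pcgf1 was lost, and that of Pcgf1KO+ Pcgf1_flag with Pcgf1KO cells whether it moved again on re-expression. For each gene the shift is the number of percentage points of its first-exon FPKM that lay on other first exons in the second sample: 0 means identical shares and 100 means no first exon in common. A gene was counted as shifted above 25 points. By this rule 593 of the 3250 genes (18.2%) were shifted between Pcgf1KO and wildtype, 586 (18.0%) between Pcgf1KO+ Pcgf1_flag and Pcgf1KO, and 587 (18.1%) between Pcgf1KO+ Pcgf1_flag and wildtype cells. The leading first exon was another in 339 (10.4%), 337 (10.4%) and 364 genes (11.2%). The median shift was 0 in each comparison, the means were 11.3, 11.0 and 11.2 points, and 55.0%, 55.7% and 55.3% of genes had a shift of exactly 0. Each pair of samples thus gave nearly the same counts. The comparisons share samples, so the counts are not independent of each other.

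**Figure D1:**
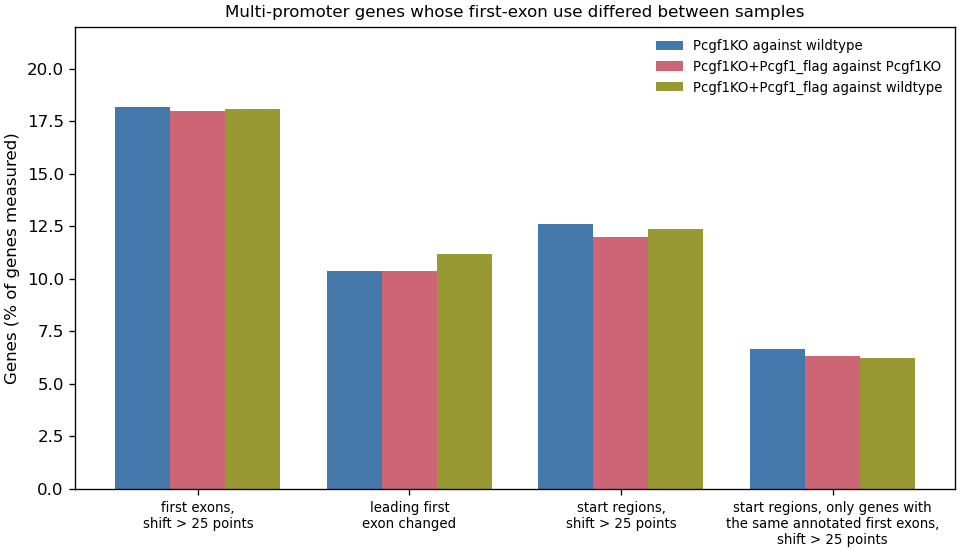
Percent of multi-promoter genes (y axis, percent of the genes measured) whose first-exon use differed in each of the 3 pairs of samples (colours), under 4 definitions (x axis). Within each definition the bars are of nearly the same height, from 18.2%, 18.0% and 18.1% for first exons to 6.66%, 6.32% and 6.24% for start regions of genes with the same annotated first exons in all files.

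Some of these shifts were between starts that are close together or between first exons that not every list held. Of the 593 genes shifted between Pcgf1KO and wildtype, 171 (28.8%) exchanged first exons whose starts were at most 500 bases apart, and 234 (39.5%) involved a first exon absent from at least 1 list. First exons present in all lists ended at an annotated GENCODE first exon in 99.0% of cases, those in fewer lists in 15.1%. Presence in a list did not mean signal, since 15679 first exons (55.6%) were at 0 in all 3 samples. A first exon at 5 FPKM or more in 1 sample and 0 in the other was found in 344 of the shifted genes (58.0%). A value of exactly 0 beside a high neighbour can be a failed estimate of the quantification, and the sources used here do not state over which transcripts the FPKM of a first exon was summed; an exon is therefore only said to be listed at 0. Transcripts were numbered separately in each list, and what part their assembly had in these shifts was not tested.

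With starts at most 500 bases apart merged into a start region, 408 genes (12.6%) remained shifted between Pcgf1KO and wildtype, 390 (12.0%) between Pcgf1KO+ Pcgf1_flag and Pcgf1KO and 404 (12.4%) between Pcgf1KO+ Pcgf1_flag and wildtype cells. In the 2644 genes whose first exons were all annotated and present in all lists, the start-region counts were 176 (6.66%), 167 (6.32%) and 165 (6.24%). In the 176 genes shifted between Pcgf1KO and wildtype, the gaining and the losing first exon were a median of 10252.5 bases apart. Both were untranslated leader exons in 34 genes and both contained coding sequence in 29, while in 30 genes 1 was a leader exon and the other coding. In 76 genes at least 1 of the first exons is annotated in noncoding transcripts alone. The gaining first exon was the upstream one in 108 genes and the downstream one in 68. Between Pcgf1KO+ Pcgf1_flag and wildtype cells it was upstream in 108 and downstream in 57, and between Pcgf1KO+ Pcgf1_flag and Pcgf1KO cells upstream in 88 and downstream in 79. Upstream first exons thus gained more often in both comparisons against wildtype, which share the wildtype library. Over all shifted genes the excess was smaller, with 296 upstream and 262 downstream between Pcgf1KO and wildtype and 311 and 240 between Pcgf1KO+ Pcgf1_flag and wildtype cells. Between Pcgf1KO+ Pcgf1_flag and Pcgf1KO cells it was 292 upstream and 264 downstream, so over all shifted genes an upstream excess was not particular to comparisons with wildtype.

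Genes whose use stood apart in 1 sample were counted as those more than 25 points from both other samples while these were less than 10 points from each other. Wildtype stood apart in 151 genes (4.65%), Pcgf1KO in 126 (3.88%) and Pcgf1KO+ Pcgf1_flag in 129 (3.97%). In the genes with the same annotated first exons the start-region counts were 66 (2.50%), 59 (2.23%) and 42 (1.59%). A pattern of change in the knockout with a return in the rescued cells was therefore about as frequent as each of the other patterns, each of which has examples below. They were chosen among the genes with the same annotated first exons after their values were seen.

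Osbpl9 was the most complete case of a knockout apart. Its upstream coding first exon stood at 10.6 FPKM in wildtype, 0 in Pcgf1KO and 7.94 FPKM in Pcgf1KO+ Pcgf1_flag cells, and its downstream first exon at 0, 12.1 and 0 FPKM. The shares therefore went from 100% to 0% and back to 100% on the upstream promoter, with the summed FPKM between 7.94 and 12.1. Rrbp1 encodes a ribosome-binding protein of the endoplasmic reticulum. The untranslated first exon of Rrbp1 at chr2:144010999-144011263 was at 16.1, 80.9 and 19.6 FPKM in wildtype, Pcgf1KO and Pcgf1KO+ Pcgf1_flag cells, and a noncoding-transcript first exon 28098 bases downstream was at 52.9, 0 and 54.6 FPKM. The upstream share of 23.3% in wildtype was 100% in Pcgf1KO and 26.4% in Pcgf1KO+ Pcgf1_flag cells.

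Glutathione reductase, the enzyme that restores reduced glutathione, is encoded by Gsr. Its coding first exon at chr8:33653238-33653779 was steady at 9.91, 9.77 and 8.06 FPKM. The signal that moved lay on the noncoding-transcript first exons on either side: the upstream exon was at 0, 46.9 and 0 FPKM and the downstream exon at 38.8, 0 and 34.5 FPKM. Sin3a, the scaffold of a histone deacetylase corepressor, was read from a leader exon at chr9:57075338-57075345 alone in wildtype and Pcgf1KO+ Pcgf1_flag cells, at 25.5 and 33.6 FPKM. In Pcgf1KO cells this exon of Sin3a was at 17.1 FPKM, joined by an upstream leader exon at 11.5 FPKM and a downstream leader exon at 6.46 FPKM that were at 0 elsewhere. The leading exon of Sin3a is only 8 bases long as listed, and all its first exons in use are untranslated. Dhx32, a DEAH-box helicase gene, gained an upstream leader exon at 6.88 FPKM in Pcgf1KO cells that was at 0 in the others, beside a first exon at 11.2, 8.04 and 8.63 FPKM.

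Wildtype stood apart in Vapb, which encodes an endoplasmic reticulum tether for lipid exchange. Its coding first exon at chr2:173737511-173737750 was at 9.64, 4.16 and 3.56 FPKM in wildtype, Pcgf1KO and Pcgf1KO+ Pcgf1_flag cells, while a noncoding-transcript first exon 30689 bases downstream was at 0, 27.3 and 23.4 FPKM. The coding first exon thus held 100% of the sum in wildtype and 13.2% in each of the other samples, and the sum itself was higher in both, by log2 1.69 in Pcgf1KO and 1.47 in Pcgf1KO+ Pcgf1_flag cells. Ptms, the gene of the acidic nuclear protein parathymosin, had a coding first exon at 36.3, 37.9 and 23.1 FPKM. Around it, the upstream noncoding-transcript first exon of Ptms was at 0, 74.6 and 65.0 FPKM and the downstream exon at 117, 0 and 0 FPKM. Both genes kept a coding first exon in use in every sample, lower in the other samples than in wildtype in Vapb, while most of the difference lay on noncoding-transcript first exons.

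Of the genes with promoters printed above, Ece1 used both promoters in wildtype cells, at 3.44 FPKM upstream and 4.49 FPKM downstream. In Pcgf1KO and Pcgf1KO+ Pcgf1_flag cells the upstream first exon of Ece1 was at 5.84 and 8.76 FPKM and the downstream coding first exon was listed at 0. Ptprs favoured its downstream promoter in wildtype, with 18.6 FPKM against 3.51 FPKM upstream. This order was reversed in Pcgf1KO cells, with 2.63 FPKM downstream and 6.33 FPKM upstream, and in Pcgf1KO+ Pcgf1_flag cells, with 8.35 and 16.4 FPKM. The upstream share of Ptprs was accordingly 15.9%, 70.7% and 66.2%, with no value at 0. Bscl2 stood at 8.95, 4.34 and 6.32 FPKM on its upstream first exon and at 0, 9.61 and 7.61 FPKM on the downstream leader exon. The zinc transporter gene Slc39a11 was read from a leader exon at 8.48, 4.83 and 6.74 FPKM in all samples, and a leader exon 84315 bases upstream was at 0, 5.27 and 7.12 FPKM. In Ece1, Ptprs and Slc39a11 the shares of the Pcgf1KO+ Pcgf1_flag sample lay with those of Pcgf1KO and not with wildtype, whereas in Bscl2 they differed from Pcgf1KO by 14.3 points and from wildtype by 54.6 points.

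The Pcgf1KO+ Pcgf1_flag sample stood apart in Ctnnbip1, whose product keeps beta-catenin from binding its Tcf partners. Its upstream leader exon was at 9.50, 8.85 and 4.18 FPKM in wildtype, Pcgf1KO and Pcgf1KO+ Pcgf1_flag cells, and a leader exon 26881 bases downstream was at 0, 0 and 4.66 FPKM.

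**Figure D2:**
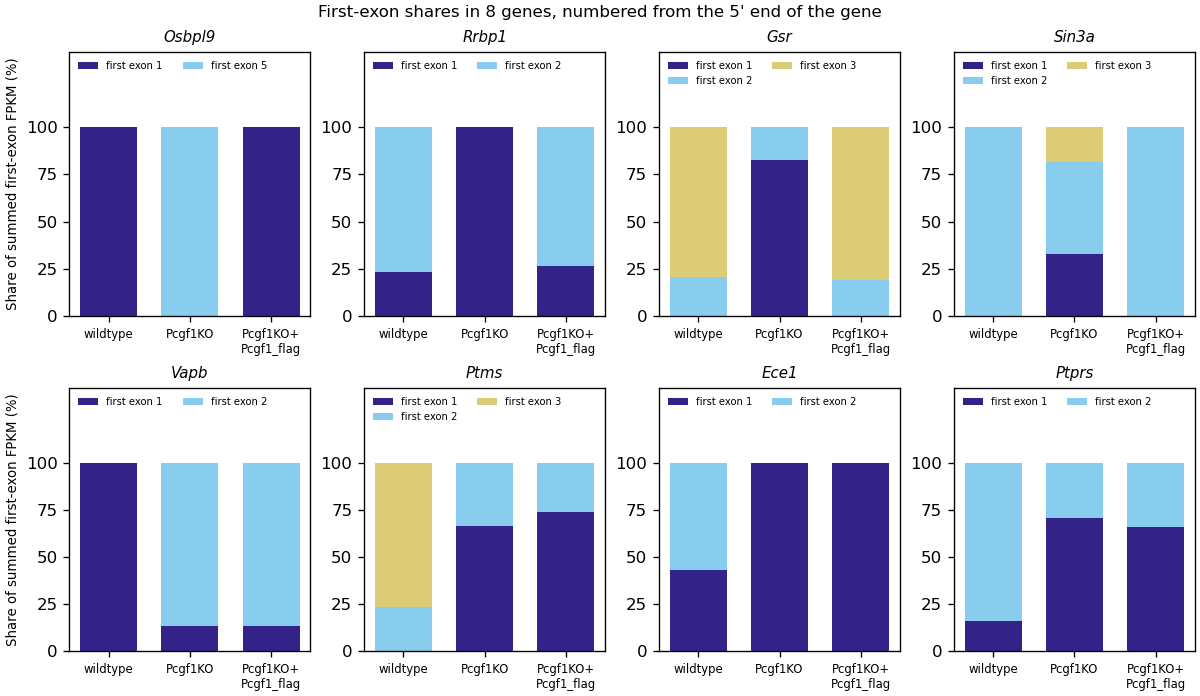
Share of the summed first-exon FPKM (y axis, percent) on each first exon (colours, numbered from the 5′ end of the gene) in the 3 samples (x axis) for 8 genes; 1 library per bar, so there are no error bars. In Osbpl9, Rrbp1, Gsr and Sin3a the Pcgf1KO bar differs from the other bars, and in Vapb, Ptms, Ece1 and Ptprs the wildtype bar does.

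The largest shifts over all 3250 genes were often of the kinds that the narrower definitions remove. A shift of 100 points was seen in 13 genes between Pcgf1KO and wildtype, 11 between Pcgf1KO+ Pcgf1_flag and Pcgf1KO and 15 between Pcgf1KO+ Pcgf1_flag and wildtype cells. Highest in level among the first was Tmsb4x, the gene of the actin-sequestering thymosin beta-4, with 543 FPKM in wildtype on an unannotated first exon that the other lists did not hold, and 930 and 477 FPKM in Pcgf1KO and Pcgf1KO+ Pcgf1_flag cells on the annotated leader exon. Mcl1, an antiapoptotic gene of the Bcl2 family, stood at 93.3 FPKM in wildtype and at 77.1 and 81.8 FPKM in the others, from the same start but with another splice donor. Psmc2, a proteasome ATPase gene, was read in wildtype from an annotated leader exon at 78.5 FPKM and in Pcgf1KO cells from an unannotated first exon 1003 bases upstream at 81.0 FPKM. Zfp106, a zinc finger gene, moved from a coding first exon at 60.3 FPKM to a leader exon 8527 bases upstream at 44.8 FPKM. The other named genes with the largest shifts in this comparison were Phf3, Adgrl2, Ccdc40, Nav2, Osbpl9 and Zfp961. Zfp961, like Mcl1, used the same start with alternative donors.

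Between Pcgf1KO+ Pcgf1_flag and Pcgf1KO cells the leading names were Paics, Macf1, Zranb1, Osbpl9, Rab40c and Zfp961. Paics, an enzyme gene of purine synthesis, was read at 260 FPKM in Pcgf1KO+ Pcgf1_flag cells from a first exon in no other list, within 61 bases of the starts used in the other samples. The cytoskeletal linker gene Macf1 had 3 other starts in use in the Pcgf1KO+ Pcgf1_flag sample, of which the most downstream, 276608 bases from the most upstream listed start, was at 16.7 FPKM there and at 0 in both others. Between Pcgf1KO+ Pcgf1_flag and wildtype cells Rps18, Paics, Mcl1, Tmsb4x, Zfp106 and Rnf220 led. For Rps18, a ribosomal protein gene, the first exons concerned start 187 bases apart. Merged into start regions, the shift of Rnf220 was 0 in each comparison.

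A more highly expressed gene was less often shifted. Between Pcgf1KO and wildtype, 25.5% of the 941 genes whose lowest sum was 5 to 10 FPKM were shifted, 17.8% of 878 at 10 to 20 FPKM, 16.0% of 845 at 20 to 50 FPKM and 10.6% of 586 at 50 FPKM and above. The same decline was seen between Pcgf1KO+ Pcgf1_flag and Pcgf1KO cells, from 25.7% to 11.6%, and between Pcgf1KO+ Pcgf1_flag and wildtype cells, from 24.1% to 11.6%. Genes with more listed first exons were shifted more often. Between Pcgf1KO and wildtype, 6.96% of genes with 2 first exons, 16.1% with 3, 24.4% with 4 or 5 and 31.2% with 6 or more were shifted. Read depth is not given with FPKM, so the counting error behind a share is unknown.

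**Figure D3:**
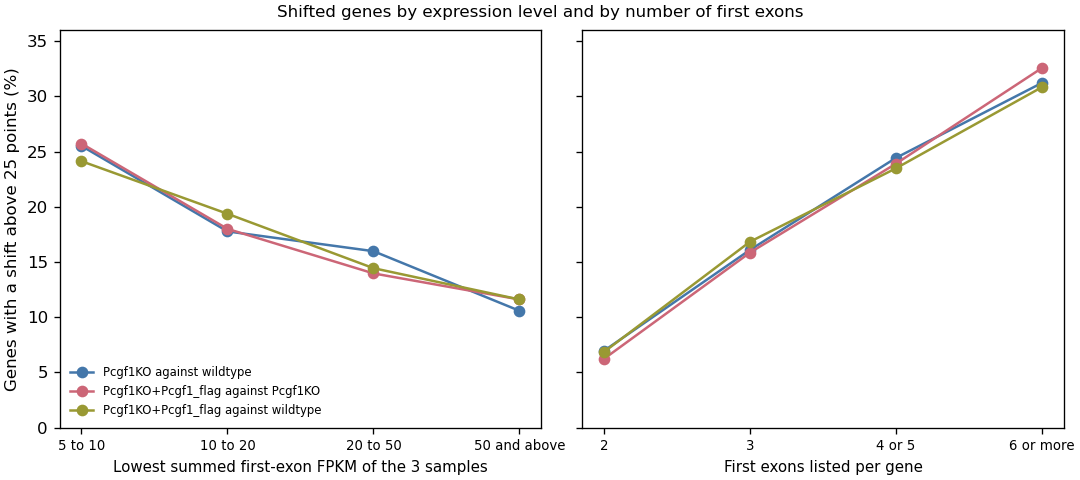
Percent of genes with a shift above 25 points (y axis) by the lowest summed first-exon FPKM of the 3 samples (left) and by the number of first exons listed for the gene (right), 1 line per pair of samples. The lines lie close together, falling from about 25.5% to 10.6% with level and rising from 6.96% to 31.2% with the number of first exons for Pcgf1KO against wildtype.

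Few shifted genes also differed in their summed first-exon FPKM. Among shifted genes the summed FPKM differed more than 2-fold between Pcgf1KO and wildtype in 29 (4.89%), against 1.35% of the other genes. These shares were 4.95% against 2.36% between Pcgf1KO+ Pcgf1_flag and Pcgf1KO and 3.41% against 0.864% between Pcgf1KO+ Pcgf1_flag and wildtype cells. Over all 3250 genes the median log2 ratio of the sums was -0.06, -0.06 and -0.12. Ptprs was among the shifted genes with a lower sum in Pcgf1KO than in wildtype cells, by log2 -1.29. Its sum was higher again in Pcgf1KO+ Pcgf1_flag than in Pcgf1KO cells, by log2 1.46, and there stood near wildtype, while its shares stayed near those of Pcgf1KO.

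At the level of single first exons, all 28177 were compared by the ratio of FPKM + 0.1. Between Pcgf1KO and wildtype 1864 (6.62%) were more than 2-fold higher and 2247 (7.97%) more than 2-fold lower. Between Pcgf1KO+ Pcgf1_flag and Pcgf1KO cells 2400 (8.52%) were higher and 1932 (6.86%) lower, and between Pcgf1KO+ Pcgf1_flag and wildtype cells 2139 (7.59%) were higher and 2029 (7.20%) lower. Pcgf1KO cells thus had more first exons lower than higher against either other sample. The order of higher and lower in both comparisons with Pcgf1KO+ Pcgf1_flag cells turned without the exons of low level. Among the 4475 first exons with 5 FPKM or more in either sample, 443 were higher and 501 lower in Pcgf1KO+ Pcgf1_flag than in Pcgf1KO cells, and among 4532 against wildtype 380 were higher and 482 lower. With FPKM + 1 in the ratio, 966 were higher and 1062 lower in Pcgf1KO+ Pcgf1_flag than in wildtype cells. Against Pcgf1KO cells the order did not turn with FPKM + 1, at 1051 higher and 1015 lower.

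The promoters of the first exons in use were rich in CG whether or not their share moved. A RefSeq promoter lay within 100 bases of 3965 first exons of the measured genes (32.2%), some of them serving several first exons. First exons with at least 50% of their gene in every sample had a median of 23 CG, with 15 or more in 83.2% of 1792 promoters. Those at 0 in every sample had a median of 19 CG, with 15 or more in 63.4% of 926 promoters. At first exons that gained more than 25 points in Pcgf1KO against wildtype the median was 22 CG, with 15 or more in 78.9% of 213 promoters, and at those that lost as much it was 24 CG, with 80.3% of 198. The median CG counts of the gaining and the losing group thus lay within 2 CG of each other, and both were far above the 7 CG of all RefSeq promoters. A promoter near several first exons could enter both groups, and how many did was not counted. The groups are therefore not separate sets, and part of their likeness may come from shared promoters.

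**Figure D4:**
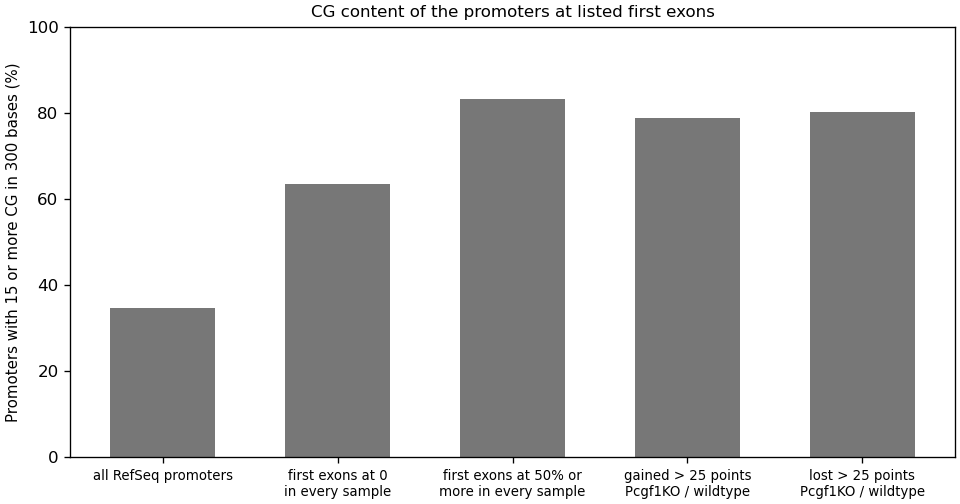
Percent of RefSeq promoters with 15 or more CG in 300 bases (y axis) for all promoters in the table and for those at first exons grouped by use (x axis). Promoters gaining and losing use between Pcgf1KO and wildtype stand at 78.9% and 80.3%, near the 83.2% of first exons with at least 50% of their gene in every sample and above the 34.6% of all promoters.

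Gene lists were used to look at regulators of pluripotency and chromatin. Of their 148 genes, 79 had several first exons and 41 of these were measured. Between Pcgf1KO and wildtype 6 of the 41 were shifted, between Pcgf1KO+ Pcgf1_flag and Pcgf1KO cells 9, and between Pcgf1KO+ Pcgf1_flag and wildtype cells 8, with a median shift of 0 in each, as over all genes, against the 18.2%, 18.0% and 18.1% of all measured genes. None of the lineage genes (9 with several first exons) or the feeder fibroblast markers (4) reached 5 FPKM in every sample, so their first-exon use was not read.

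Among subunits of PRC1.1 and those it shares with other PRC1 complexes, only Pcgf1 and Usp7 were measured of 4 multi-promoter genes, and only Usp7 was shifted, in each comparison. Usp7 is a ubiquitin-specific protease. Its upstream leader exon was steady at 54.9 FPKM in wildtype, 51.4 in Pcgf1KO and 61.0 in Pcgf1KO+ Pcgf1_flag cells, near 50% of the sum in each. What differed in Usp7 was a further start, an unannotated short first exon at another place in each list, at 40.0, 33.7 and 35.9 FPKM.

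Of the other Pcgf and canonical PRC1 subunits, 8 of 11 multi-promoter genes were measured: none was shifted between Pcgf1KO and wildtype, while Pcgf5 and Cbx7 were in both comparisons with Pcgf1KO+ Pcgf1_flag cells. Over all measured genes 18.2% were shifted between Pcgf1KO and wildtype, and 18.0% and 18.1% in the comparisons with Pcgf1KO+ Pcgf1_flag cells. Counts among 8 genes are too small to be set apart from these shares. Cbx7, the main chromodomain subunit of canonical PRC1 in ES cells, has its first exons annotated and present in all lists. The most upstream, an untranslated exon at chr15:79970869-79971119, was at 0 FPKM in wildtype and Pcgf1KO and at 24.7 FPKM in Pcgf1KO+ Pcgf1_flag cells. A coding first exon of Cbx7 37220 bases downstream was at 32.3, 26.1 and 0 FPKM, and a further coding first exon was at 39.1, 25.9 and 32.3 FPKM. The Cbx7 exchange thus set the Pcgf1KO+ Pcgf1_flag sample apart from both others. Pcgf5, a paralog of Pcgf1 in another variant PRC1, had its leading exon at 5.85, 8.58 and 6.24 FPKM, and a first exon 61270 bases upstream was present in the Pcgf1KO+ Pcgf1_flag list alone, at 4.35 FPKM. Of 7 measured PRC2 subunits, Phf19, which links PRC2 to chromatin, was the shifted gene in the same 2 comparisons, with its annotated leader exon at 10.8, 11.9 and 3.76 FPKM. The sum of Phf19 was steady at 10.8, 11.9 and 12.0 FPKM, and the rest of it in Pcgf1KO+ Pcgf1_flag cells, 4.92 and 3.30 FPKM, lay on unannotated first exons of 11 and 24 bases that were in that list alone.

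Tet1, a dioxygenase that oxidizes 5-methylcytosine and is known for alternative promoters, was the shifted gene among 4 measured genes of DNA methylation. The most upstream first exon of Tet1, at chr10:62898944-62899118, was at 12.1 FPKM in wildtype, 0 in Pcgf1KO and 6.94 FPKM in Pcgf1KO+ Pcgf1_flag cells. Its leading first exon, 6108 bases downstream, was at 27.0, 22.8 and 40.2 FPKM. In Pcgf1KO cells 2 further annotated leader exons of Tet1, absent from the other lists, were at 8.56 and 14.7 FPKM. The Tet1 sums were close, at 39.2, 46.0 and 47.2 FPKM, and the shift was 50.5 points from wildtype to Pcgf1KO, 50.5 points from Pcgf1KO to Pcgf1KO+ Pcgf1_flag and 16.3 points between wildtype and Pcgf1KO+ Pcgf1_flag cells.

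Esrrb, an orphan nuclear receptor of the naive pluripotency network, was the shifted gene of 6 measured pluripotency genes, where Pou5f1, Nanog, Sall4, Lin28a and Myc were not. Its sum was 85.3, 94.8 and 77.2 FPKM. In wildtype 28.7 FPKM of the Esrrb sum lay on a splice donor 4 bases downstream of the leading one, and in the other samples none did, from the same start. The start-region shift of Esrrb was 0 in each comparison, so no change of promoter was read in this list.

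Of 5 measured developmental regulators, 2 were shifted between Pcgf1KO and wildtype, Tcf7l1 and Tcf3. Between Pcgf1KO+ Pcgf1_flag and Pcgf1KO cells 3 were, these and Tcf7l2, and between Pcgf1KO+ Pcgf1_flag and wildtype cells 2, Tcf7l2 and Tcf3. Over all measured genes 18.2%, 18.0% and 18.1% were shifted, and counts in lists this short are too small to be set apart from these shares. Tcf7l1 is the Tcf factor that represses pluripotency genes in ES cells. Its annotated coding first exon was at 43.0, 29.6 and 34.5 FPKM, and an unannotated first exon 97425 bases downstream was in the Pcgf1KO list alone, at 18.9 FPKM. Tcf7l2, a related Wnt effector, had its downstream coding first exon listed at 0 FPKM in Pcgf1KO+ Pcgf1_flag cells, against 2.87 FPKM in wildtype and 3.19 FPKM in Pcgf1KO cells. Tcf3 had its leading leader exon at 50.4, 35.0 and 43.3 FPKM beside a further first exon that was another in each sample. Those of wildtype and Pcgf1KO cells start 37 bases apart and fall in the start region of the leading exon, so the start-region shift of Tcf3 between these samples was 0. Igf2r, an imprinted receptor gene that clears Igf2, was shifted in each comparison among 9 measured imprinted genes. The annotated Igf2r first exon was at 2.64, 6.99 and 15.1 FPKM, and the rest of the sum lay on unannotated downstream first exons of wildtype (7.03 FPKM) and Pcgf1KO cells (5.93 FPKM). Igf2r overlaps an antisense transcript, and no source used here says that reads were assigned by strand. Whether that transcript reaches or bears on these first exons was not tested.

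**Figure D5:**
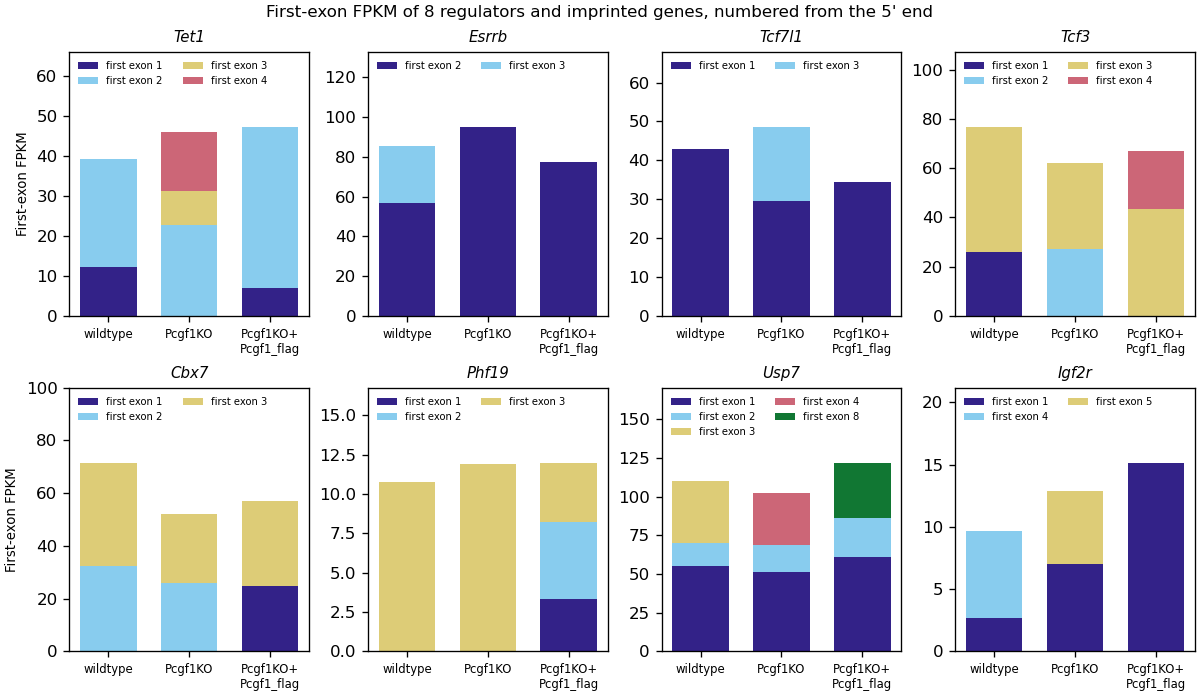
First-exon FPKM (y axis) stacked by first exon (colours, numbered from the 5′ end of the gene) in the 3 samples (x axis) for 8 genes of the lists, 1 library per bar. The summed height differs little between samples for Tet1 (39.2, 46.0 and 47.2 FPKM) while its parts change, and in Usp7 the lower part is steady (54.9, 51.4 and 61.0 FPKM).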

How the data were processed

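For each of the 3 ES cell samples the authors deposited a table of transcript starts, ends and splicing events, with an FPKM for every event. FPKM had been computed by the authors from reads mapped to mm10. The processing notes name TopHat2 2.0.12, Cufflinks 2.2.1 and HTSeq 0.6.0, without their roles. The program behind the event lists and its annotation are not given in the sources used here. Transcripts were numbered separately in each list.

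First-exon events of single gene names with at least 2 such rows in every list were kept, and 13 names turned into dates were left out. First exons were matched between lists by gene, chromosome, strand and spliced end. Matching by start and end had been planned. It was replaced because listed starts of the same exon differed: it gave 30420 first exons, 81.6% in all lists, against 28177 and 93.6%. The share of a first exon is its FPKM over the summed FPKM of the gene; an exon absent from a list counted as 0. Ratios used FPKM + 0.1. First exons were annotated with GENCODE vM21, and promoter sequences came from RefSeq (GRCm38.p6). With 1 sample per group no test was run, so genes were named by fixed sizes: Pcgf1, the 10 or 6 largest shifts per comparison, the 6 genes with the most first exons, the 4 highest, and list members shifted above 25 points. Other genes were chosen after their values were seen. The members and lists were chosen with earlier results of these data known. Python 3.11.15, numpy 2.4.6, pandas 2.3.3 and matplotlib 3.10.9 were used, and the counting was tested on simulated shares. Alternatives changed the minimum, the limits, the matching and the set of first exons. Depth is unknown.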

Additional observations from a re-analysis of the deposited data

How the results depend on the processing

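Counts are given in the order Pcgf1KO against wildtype, Pcgf1KO+ Pcgf1_flag against Pcgf1KO, and Pcgf1KO+ Pcgf1_flag against wildtype cells. Over 18 settings, 63 counts moved by more than 1.5 times and 27 did not, and in none did Pcgf1KO against wildtype stand apart from the other comparisons by that factor. Shifted genes numbered 1103, 1085 and 1114 at a minimum of 1 FPKM, 353, 344 and 360 at 10 FPKM, and 1718, 1732 and 1753 with no minimum. They numbered 923, 905 and 905 with first exons matched by start and end, 299, 293 and 284 in genes with the same first exons in all lists, and 226, 237 and 222 without genes with a first exon at 5 FPKM or more against 0. In genes whose first- and last-exon sums lay within 10% they numbered 323, 310 and 319. The limit of 10 points gave 1043, 1008 and 1025, and that of 50 points 195, 186 and 201. Start regions gave 390 for the second comparison, and start regions of genes with the same annotated first exons 176, 167 and 165. Genes whose leading first exon changed numbered, in the same order of settings, 630, 622 and 663; 209, 206 and 228; 1087, 1107 and 1126; 619, 623 and 638; 181, 164 and 199; 157, 153 and 168; and 191, 198 and 209. With start regions they numbered 210 and 227 in the comparisons of Pcgf1KO+ Pcgf1_flag with Pcgf1KO and with wildtype cells, and 94, 84 and 97 in genes with the same annotated first exons. First exons differing more than 2-fold numbered 2016, 2066 and 2028 with FPKM + 1 in place of FPKM + 0.1, and 938, 944 and 862 among those with 5 FPKM or more. Some counts moved with the number of genes that entered: for Pcgf1KO against wildtype, where 18.2% of 3250 genes were shifted, it was 15.3% of 2309 at a minimum of 10 FPKM and 17.0% of 1904 with like first- and last-exon sums. The share itself was 23.4% of 4712 at a minimum of 1 FPKM, 28.4% of 6042 with no minimum, 28.4% of 3250 by start and end, 11.0% of 2726 with the same first exons in all lists, 8.49% of 2661 without the exons against 0 and 6.66% of 2644 in the last set. Other causes were not tested. The start-region, annotated-only and median-scaled settings were added after seeing the data.

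No paired analysis was possible because each genotype has 1 sample. No replicate was left out for the same reason. Depth is unknown, so no error is given for a share. Most genes described singly rest on first exons listed at exactly 0 in some sample. Among them are Osbpl9, Rrbp1, Gsr, Sin3a, Dhx32, Vapb, Ptms, Ece1, Bscl2, Slc39a11, Ctnnbip1, Cbx7 and Tet1, whereas Ptprs had no value at 0. Whether these zeros are failed estimates was not tested. Most first exons of the measured genes had no RefSeq promoter within 100 bases, so the CG counts cover the 32.2% that did.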
